A study of Mus musculus with 6 samples.

Results

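Thyroid hormone activation and response in the liver was described here through 8 genes, chosen by name for their roles as carriers and transporter of the hormone, as activating enzyme, as receptors and as classic hormone-responsive genes. All 8 were measured, by 9 probe sets that each carried a single gene symbol, of 35512 probe sets for 19938 genes on the array. The intensities came from whole liver of 3 knock-in mice with the G609G allele of Lmna on both chromosomes (replicates 1, 3 and 5) and of 3 wild-type mice (replicates 2, 4 and 6), with 1 array for each mouse. The allele alters splicing of the transcript of Lmna, which encodes lamin A and lamin C, and such mice serve as a model of Hutchinson-Gilford progeria, a disease of early ageing. All 6 mice were C57BL/6 females of 3 months that had gone without food for 6 h when they were killed, so both genotypes were sampled in the same short fast. The knock-in allele is carried by every cell of the animal, so the liver was not altered alone.

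The thyroid gland releases mostly thyroxine (T4), which travels in plasma bound to thyroxine-binding globulin, transthyretin and albumin and enters hepatocytes through membrane transporters. In the liver the selenoenzyme deiodinase type 1 removes an iodine from T4 to give the active hormone T3, and it also clears reverse T3. T3 binds the nuclear receptors encoded by Thra and Thrb, of which the beta receptor is the main form in hepatocytes, and the receptors act with retinoid X receptors and with coactivators or corepressors on target genes such as Thrsp and Me1. Dio1 is itself a target of T3. Most of these target genes also respond to insulin, to sugar or to feeding.

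Of the 8 genes, 3 fell and 1 rose in knock-in liver, while the other 4 did not pass the test. The activating enzyme gene Dio1 was 24.5-fold lower, the lipogenic target Thrsp 7.60-fold lower and the malic enzyme gene Me1 5.23-fold lower. The transporter gene Slc16a10 was 2.02-fold higher. Both receptor genes and both carrier protein genes differed by 1.61-fold or less, and none of these 4 was called. A call means a Benjamini-Hochberg adjusted p below 0.05 in limma's moderated test over 26664 probe sets, two-sided, on log2(intensity + 16), and folds and log2 changes are knock-in minus wild-type on that scale. Among all probe sets tested, 25.9% were called, 15.0% as higher and 10.9% as lower. The 4 called genes of 8 are set beside that share. The genes and lists were chosen with earlier results of these data known. Counts set beside such shares are therefore description and do not show enrichment. The shares count probe sets, whereas each gene is counted once. With 1 probe set per gene, 2322 were called higher and 2507 lower.

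Knock-in replicate 3 stood apart from the other knock-in mice. It was the knock-in mouse nearest to the wild-type mean in 6 of the 8 genes, and likewise in 65.1% of all called probe sets and 47.8% of all tested ones. The log2 changes of the 8 genes are therefore given with and without it, although leaving out the knock-in mouse nearest to wild-type enlarges most differences by construction. Array medians were 101, 104 and 104 intensity units in knock-in and 97, 101.5 and 98 in wild-type mice. An array has no sequencing depth, and the number of arrays limits the precision. Of 8 hepatocyte markers, 3 rose (Hnf4a, Tat and Tdo2) and the other 5 were not called, beside 15.0% called higher over all probe sets tested. The albumin gene Alb read 16618 to 18818 in knock-in and 16607 to 17889 in wild-type livers. Fewer cells of a type and less RNA per cell cannot be told apart in these bulk samples.

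The promoters of the genes that changed are shown here because these genes moved, together with that of Thrb, the main hepatic receptor gene. Each window runs from 250 bases before to 50 bases after an annotated start in RefSeq (GRCm38.p6), written 5′ to 3′ on the gene's own strand, and for Me1 and Thrb it is the more upstream of 2 windows. Capitals mark AGGTCA, the receptor half-site, and CCAAT, the box bound by the factor NF-Y, each searched on both strands (TGACCT and ATTGG on the opposite one). No match of one motif overlapped a match of the other.
Slc16a10 (chr10:40142205-40142504, minus strand): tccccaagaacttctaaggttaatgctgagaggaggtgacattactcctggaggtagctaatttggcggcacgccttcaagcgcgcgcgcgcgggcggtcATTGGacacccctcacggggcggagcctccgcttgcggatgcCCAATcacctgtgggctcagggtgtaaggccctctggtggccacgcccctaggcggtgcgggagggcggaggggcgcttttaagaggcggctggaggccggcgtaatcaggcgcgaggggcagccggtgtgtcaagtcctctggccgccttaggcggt
Dio1 (chr4:107307119-107307418, minus strand): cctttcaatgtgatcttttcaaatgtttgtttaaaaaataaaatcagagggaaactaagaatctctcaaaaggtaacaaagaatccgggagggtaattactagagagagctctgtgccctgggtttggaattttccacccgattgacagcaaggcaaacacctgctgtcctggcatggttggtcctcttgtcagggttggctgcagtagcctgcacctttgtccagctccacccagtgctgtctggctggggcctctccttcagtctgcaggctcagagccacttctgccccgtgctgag
Thrb (chr14:17660710-17661009, plus strand): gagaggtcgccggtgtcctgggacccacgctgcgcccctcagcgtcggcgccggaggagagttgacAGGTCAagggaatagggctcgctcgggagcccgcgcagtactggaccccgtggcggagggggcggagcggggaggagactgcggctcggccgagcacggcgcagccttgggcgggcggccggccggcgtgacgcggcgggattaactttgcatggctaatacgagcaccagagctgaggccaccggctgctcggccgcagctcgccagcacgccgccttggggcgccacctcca
Thrsp (chr7:97417501-97417800, minus strand): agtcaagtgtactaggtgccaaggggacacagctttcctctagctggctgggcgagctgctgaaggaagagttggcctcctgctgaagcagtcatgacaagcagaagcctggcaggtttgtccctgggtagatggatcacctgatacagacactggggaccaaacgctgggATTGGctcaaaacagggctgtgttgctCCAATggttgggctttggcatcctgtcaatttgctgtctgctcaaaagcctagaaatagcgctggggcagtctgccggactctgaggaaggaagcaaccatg
Me1 (chr9:86695865-86696164, minus strand): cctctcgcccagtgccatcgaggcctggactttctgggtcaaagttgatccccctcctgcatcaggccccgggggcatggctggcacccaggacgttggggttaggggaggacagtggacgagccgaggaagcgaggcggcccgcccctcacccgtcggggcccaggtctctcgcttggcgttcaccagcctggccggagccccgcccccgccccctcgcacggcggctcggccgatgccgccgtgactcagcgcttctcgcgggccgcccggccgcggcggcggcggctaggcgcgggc
Of 9 windows for 6 of the 8 genes, 1 held AGGTCA, the one shown for Thrb, where the match begins 184 bases before the start. In 32851 windows of the same length over all genes, 16.3% held this half-site. The CCAAT box was found in 3 of the 9 windows, against 37.4% of all windows. Thrsp had matches that begin 79 and 52 bases before its start, and Slc16a10 had matches at 150 and 108 bases before its start. The windows shown for Dio1 and Me1 held neither motif, while the other window of Me1, not shown, had a CCAAT match that begins 208 bases before its start. These matches are letters in short windows and are not binding sites, and known response elements of such genes can lie farther away.

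The transporter gene Slc16a10 (probe set 10368720) encodes a carrier of aromatic amino acids that also moves T3 and T4 across the plasma membrane. It read 3297, 3575 and 3957 in knock-in livers, against 1704, 2104 and 1555 in wild-type livers. Every knock-in mouse lay above every wild-type mouse, as at 24.0% of all probe sets tested, and knock-in replicate 3 was the middle one of its group. The means were 3610 ± 331 in knock-in and 1788 ± 284 in wild-type liver (SD, n = 3 mice each), a log2 change of 1.01 ± 0.13 (SE, limma adjusted p = 0.00211, 95% interval 0.71 to 1.32). Without knock-in replicate 3 it was 1.02. No other of the 8 genes was called higher.

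**Figure D1:**
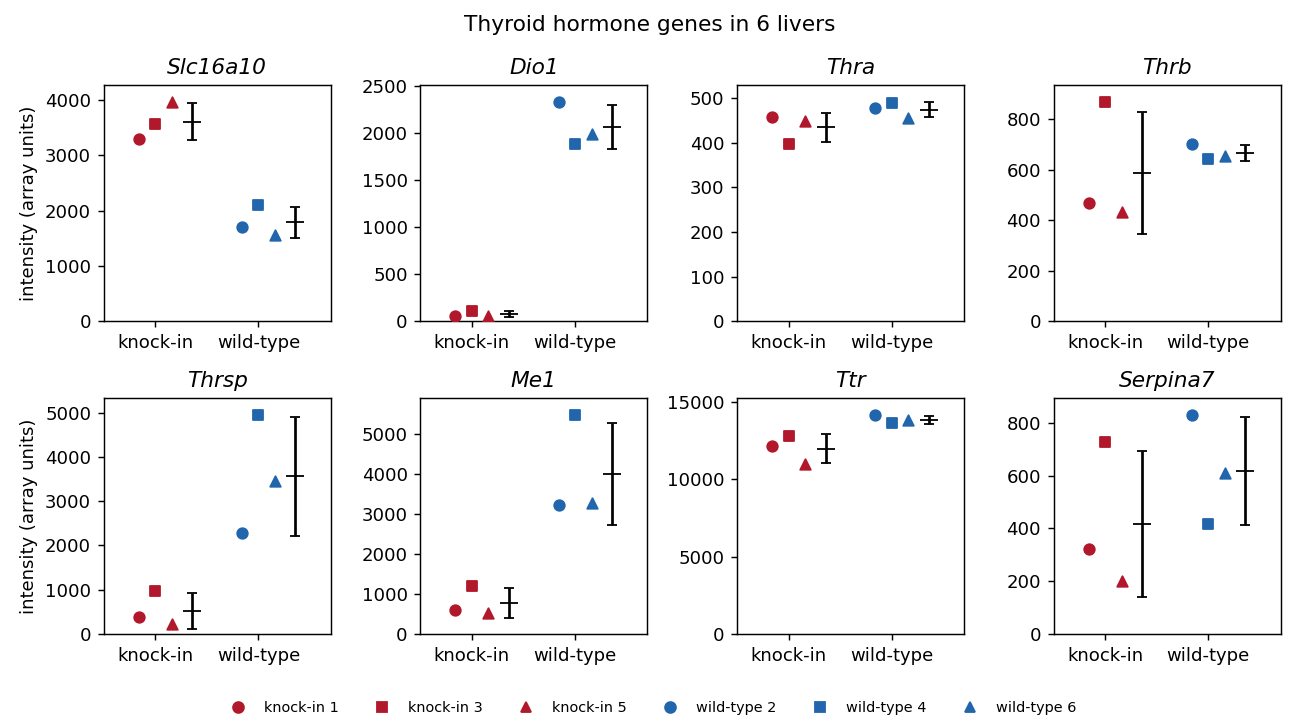
Intensity in linear array units (vertical axis, from 0) of 8 thyroid hormone genes in 3 knock-in livers (red, left) and 3 wild-type livers (blue, right), 1 point for each mouse, with the mean and SD of each genotype in black. Dio1, Thrsp and Me1 are lower in every knock-in mouse, Slc16a10 is higher in every one, and in Thrb and Serpina7 knock-in replicate 3 (red square) lies above (Thrb) or within (Serpina7) the wild-type range while the other knock-in mice lie below it.

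The activating deiodinase gene Dio1 (probe set 10514912) read 54, 111 and 52 in knock-in livers, against 2321, 1881 and 1982 in wild-type livers. The highest knock-in value was far below the lowest wild-type value, and the knock-in mice lay wholly below the wild-type mice at 17.2% of all probe sets tested. The means were 72.3 ± 33.5 in knock-in and 2061 ± 230 in wild-type liver (SD, n = 3 each), a log2 change of -4.61 ± 0.24 (SE, limma adjusted p = 0.000112, 95% interval -5.17 to -4.05). Only 2 of the 26664 probe sets tested had a lower log2 change. The ratio of the plain means, with no pseudocount, was 28.5, and with a pseudocount of 64 the log2 change was -3.98, because the knock-in values are dim. Whether the knock-in values lie above the background of the array was not analysed here. Knock-in replicate 3 was the highest of the knock-in mice, and without it the log2 change was -4.91. The protein is a selenoprotein, and Secisbp2, which encodes a factor needed to insert selenocysteine, read 317, 295 and 304 in knock-in and 211, 232 and 240 in wild-type livers, a log2 change of 0.40 ± 0.09 (limma adjusted p = 0.0171). Leaving out knock-in replicate 1, or else wild-type replicate 2, ended that call (adjusted p = 0.0633 to 0.0697).

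The other deiodinase genes gave low signals in both genotypes. Dio2, the activating enzyme of brain, pituitary and brown fat, read 31, 32 and 33 in knock-in and 32, 38 and 33 in wild-type livers, below the intensity of 38.7 required for testing. Dio3, which inactivates T4 and T3, read 43, 44 and 53 in knock-in and 40, 40 and 35 in wild-type livers. The genotypes did not overlap for Dio3, which also held for 41.2% of all probe sets tested, and its log2 change of 0.20 ± 0.08 was not called (limma adjusted p = 0.110).

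Neither receptor gene was called over all 6 mice. Thra (probe set 10381006) encodes the alpha receptor and a splice form that does not bind T3, which 1 value per gene cannot separate. It read 458, 398 and 449 in knock-in livers, against 478, 489 and 457 in wild-type livers, and the genotypes overlapped. The log2 change was -0.12 ± 0.10 (limma adjusted p = 0.413), with a 95% interval of -0.35 to 0.10. Without knock-in replicate 3 it was -0.06 (adjusted p = 0.697). In RefSeq the end of Thra overlaps the neighbouring gene Nr1d1 by 1075 bases (chr11:98767932-98769006). Which part of Thra the probe set covers, and which strand its probes read, is not stated in the sources used here.

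Thrb (probe set 10412882), the gene of the beta receptor, read 467, 867 and 431 in knock-in livers, against 703, 641 and 656 in wild-type livers. Knock-in replicate 3 was the highest of all 6 mice, and the other knock-in mice were the lowest. The SD was 242 in knock-in and 32.3 in wild-type mice, and the log2 change of -0.25 ± 0.24 was not called (limma adjusted p = 0.530, 95% interval -0.81 to 0.32). Without knock-in replicate 3 the log2 change was -0.55 ± 0.10 and was called (limma adjusted p = 0.00763, 29.1% of probe sets called in that fit). With knock-in replicate 1 left out it was -0.12 and with knock-in replicate 5 left out -0.06, so that 1 mouse decides whether Thrb is called lower.

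Both hormone-responsive genes read lower in every knock-in mouse than in any wild-type mouse, as at 17.2% of all probe sets tested. Thrsp (probe set 10565609), known as Spot 14, encodes a nuclear and cytosolic protein of fatty acid synthesis and is among the fastest T3 targets of rat liver. It read 375, 977 and 216 in knock-in livers, against 2276, 4941 and 3463 in wild-type livers. The genotypes did not overlap, although the values ranged widely within each. The means were 523 ± 401 in knock-in and 3560 ± 1335 in wild-type liver (SD, n = 3 each), a log2 change of -2.93 ± 0.51 (SE, limma adjusted p = 0.00628, 95% interval -4.12 to -1.73). With each mouse left out in turn the log2 change lay between -3.50 (without knock-in replicate 3) and -2.45 (without knock-in replicate 5).

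Me1 encodes the cytosolic malic enzyme, which supplies NADPH for fatty acid synthesis. Its brighter probe set (10595480) read 605, 1206 and 530 in knock-in livers, against 3245, 5480 and 3287 in wild-type livers, and the genotypes did not overlap. The means were 780 ± 371 in knock-in and 4004 ± 1278 in wild-type liver (SD, n = 3 each), a log2 change of -2.39 ± 0.33 (SE, limma adjusted p = 0.00266, 95% interval -3.16 to -1.62). A second probe set (10405753) carries the same gene symbol and is not counted as independent. It read 576, 1147 and 486 in knock-in and 3094, 5230 and 3194 in wild-type livers, a log2 change of -2.41 ± 0.33. Without knock-in replicate 3 the brighter probe set changed by -2.74. In wild-type liver replicate 4 was the highest mouse for Thrsp and for Me1, and in knock-in liver replicate 3 was the highest for both.

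**Figure D2:**
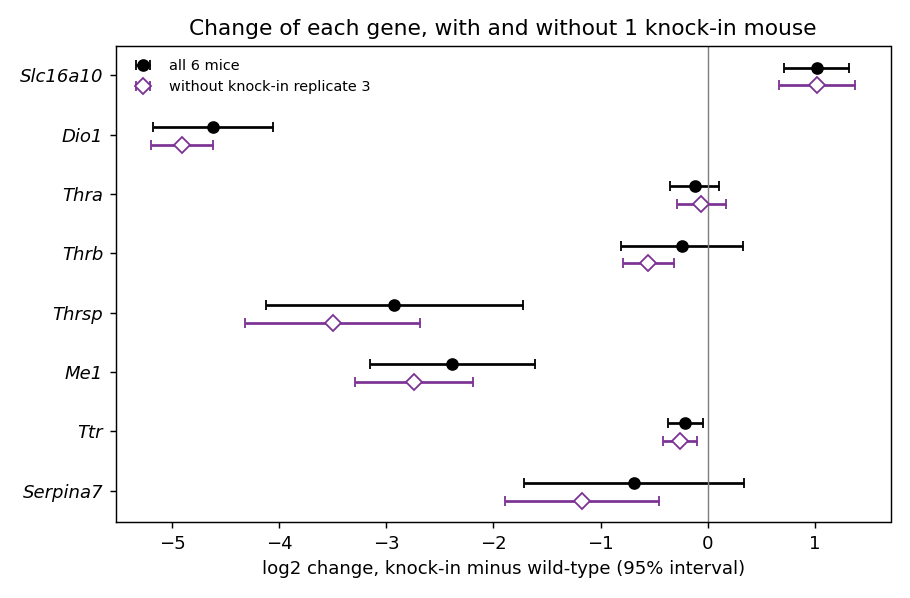
Log2 change, knock-in minus wild-type (horizontal axis), of each gene with its 95% interval from limma, over all 6 mice (black circles) and without knock-in replicate 3 (open diamonds). The intervals of Thrb (-0.81 to 0.32) and Serpina7 (-1.72 to 0.34) span 0 over all mice and do not without that mouse, while Slc16a10, Dio1, Thrsp and Me1 keep their direction in both.

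The plasma carriers made by the liver were not called. Ttr (probe set 10454192), the gene of transthyretin, read 12142, 12803 and 10966 in knock-in livers, against 14112, 13599 and 13812 in wild-type livers. Every knock-in mouse lay below every wild-type mouse, as at 17.2% of all probe sets tested. The means were 11970 ± 930 in knock-in and 13841 ± 258 in wild-type liver (SD, n = 3 each), a log2 change of -0.21 ± 0.07 (SE, limma adjusted p = 0.0613, 95% interval -0.37 to -0.05). It passed the threshold without knock-in replicate 3 (-0.26, adjusted p = 0.0262), and also with arrays centred on their medians, with a filter at the 50th percentile and with array weights (adjusted p = 0.0291 to 0.0430).

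Serpina7 (probe set 10606928) encodes thyroxine-binding globulin, which in rats is raised when thyroid hormone is low. It read 323, 726 and 200 in knock-in livers, against 828, 417 and 608 in wild-type livers, and the genotypes overlapped. The log2 change was -0.69 ± 0.44 (limma adjusted p = 0.307, 95% interval -1.72 to 0.34). Without knock-in replicate 3 it was -1.17 ± 0.30 and was called (limma adjusted p = 0.0269). Leaving out knock-in replicate 5 gave -0.28, leaving out wild-type replicate 2 gave -0.46 and leaving out wild-type replicate 4 gave -0.94, none of which passed (adjusted p = 0.235 to 0.683).

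Counted over the genes, 4 of 8 were called over all mice (3 lower, 1 higher), 5 of 8 with arrays centred on their medians (4 lower, 1 higher, with 24.6% of all probe sets called) and 7 of 8 without knock-in replicate 3 (6 lower, 1 higher), where 29.1% of all probe sets were called. Leaving out any other single mouse left the counts at 3 lower and 1 higher, with shares of all probe sets called of 15.9% (knock-in replicate 1 left out), 19.5% (knock-in replicate 5), 16.9% (wild-type replicate 2), 20.0% (wild-type replicate 4) and 17.1% (wild-type replicate 6). In 6 of the 8 genes knock-in replicate 3 had the highest knock-in value (Dio1, Thrb, Thrsp, Me1, Ttr and Serpina7), and in the same 6 genes knock-in replicate 5 had the lowest. Taken as log2 differences from the wild-type mean, knock-in replicates 1, 3 and 5 stood at -4.89, -4.03 and -4.93 for Dio1. For Thrsp they stood at -3.12, -1.78 and -3.88, and for Me1 at -2.65, -1.67 and -2.84. For Thrb they stood at -0.50, 0.37 and -0.61, and for Serpina7 at -0.85, 0.28 and -1.50. For Slc16a10 they lay close together, at 0.89, 1.01 and 1.15. What sets this mouse apart is not given in the labels and was not tested.

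**Figure D3:**
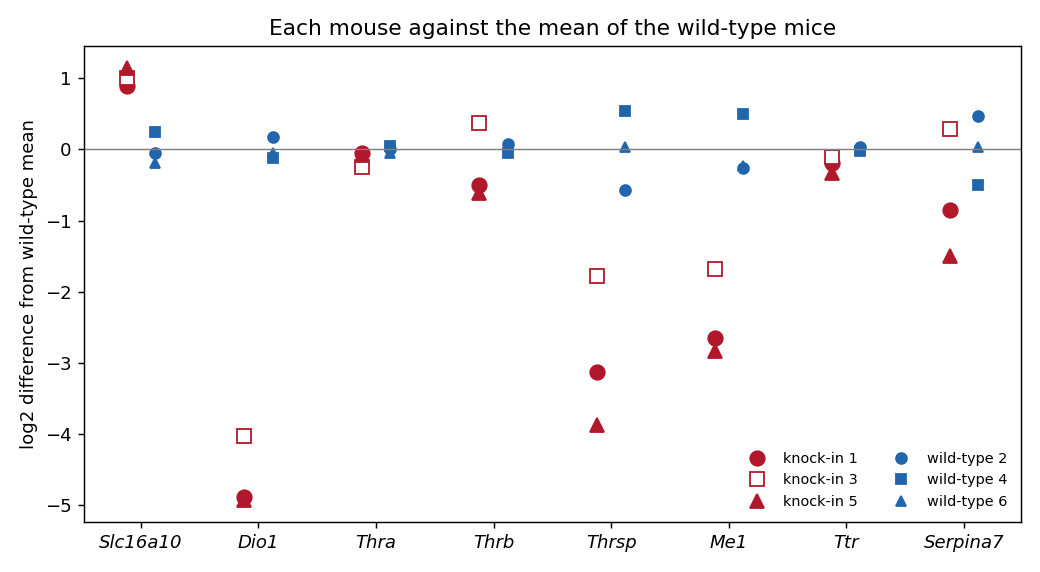
Log2 difference of each mouse from the mean of the wild-type mice (vertical axis) for 8 thyroid hormone genes, with knock-in mice in red and wild-type mice in blue. Knock-in replicate 3 (open squares) lies above the other knock-in mice for Dio1, Thrb, Thrsp, Me1, Ttr and Serpina7, at -4.03 for Dio1 and 0.37 for Thrb.

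Other genes of the hormone's path into the hepatocyte changed in both directions. Of 15 tested genes of hormone transport, binding and metabolism, 5 fell and 2 rose, beside 10.9% lower and 15.0% higher over all probe sets tested. Their median log2 change was -0.04, against 0.03 over all probe sets tested. The organic anion transporter genes, whose products carry T4 and its conjugates among many other substrates, moved apart. Slco1a1 read 66, 47 and 45 in knock-in and 1985, 262 and 529 in wild-type livers, a log2 change of -3.30 ± 0.62 (limma adjusted p = 0.00846). The knock-in values are dim, near the intensity of 38.7 required for testing, and the log2 change was -3.62 with a pseudocount of 1 and -2.66 with one of 64. The wild-type mice differed widely, and leaving out wild-type replicate 2 gave a log2 change of -2.52, whereas leaving out wild-type replicate 4 gave -3.94. Slco1b2 read 1019, 1769 and 745 in knock-in and 3587, 3141 and 3441 in wild-type livers, a log2 change of -1.60 ± 0.28 (-1.94 without knock-in replicate 3). Slco1a4 rose, with 7187, 6048 and 7679 in knock-in and 3350, 2901 and 3271 in wild-type livers, a log2 change of 1.13 ± 0.11. Probes of this family may also read close paralogs.

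Slc17a4, an anion transporter gene whose human product carries thyroid hormone, changed by -1.55 ± 0.20 (limma adjusted p = 0.00207). Slc10a1, the gene of the bile acid uptake carrier NTCP, which also takes up thyroid hormone conjugates, changed by -0.31 ± 0.08 (adjusted p = 0.0229). Leaving out knock-in replicate 1, knock-in replicate 5 or any 1 wild-type mouse ended its call (adjusted p = 0.0508 to 0.0691). Iyd, which encodes the deiodinase of iodotyrosines, changed by -0.60 ± 0.17 (adjusted p = 0.0396), a call lost without those same mice and with no filter (adjusted p = 0.0605 to 0.134). In each of those fits with 1 mouse fewer, 3 genes of the list fell in place of 5. A single gene rose when knock-in replicate 1, or else wild-type replicate 2, was left out.

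Among the receptors' partners and coregulators, 7 of 17 tested genes rose and 2 fell, beside 15.0% higher and 10.9% lower over all probe sets tested, with a median log2 change of 0.27. The coactivator gene Ppargc1a, which is also induced by fasting, read 6447, 5678 and 5635 in knock-in and 871, 1433 and 1346 in wild-type livers, a log2 change of 2.30 ± 0.18 (limma adjusted p = 0.000472). Its relative Ppargc1b changed by 1.17 ± 0.18, and the receptor-binding corepressor gene Nrip1 by 0.53 ± 0.11. Gps2, of the corepressor complex with NCoR, changed by 0.58 ± 0.14, a call that ended when any of knock-in replicates 1 and 5 and wild-type replicates 2 and 6 was left out (adjusted p = 0.0691 to 0.0887). Hdac3, the deacetylase of that complex, fell, with 884, 1081 and 732 in knock-in and 1603, 1387 and 1620 in wild-type livers, a log2 change of -0.78 ± 0.15 (limma adjusted p = 0.00946), or -0.92 without knock-in replicate 3. Rxrg, the gene of a retinoid X receptor, read 156, 155 and 146 in knock-in and 352, 310 and 396 in wild-type livers, a log2 change of -1.12 ± 0.11. Rxra, the main retinoid X receptor gene of liver, changed by -0.18 ± 0.10 and was not called (adjusted p = 0.242). The coactivator genes Crebbp, Med1 and Ncoa1, named here after their values were seen, rose by 0.47, 0.53 and 0.42. The calls of Med1 and Ncoa1 were lost with single mice left out, and that of Ncoa1 also with centred arrays (adjusted p = 0.0547 to 0.0957). In the fits that left out knock-in replicate 1, wild-type replicate 2 and wild-type replicate 6, 4 genes of the list rose. Ncor1 is not analysed here for want of a probe set with a single symbol.

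Genes that T3 induces in liver did not move one way. Of 20 tested besides Dio1, Thrsp and Me1, 5 fell, 5 rose and 10 were not called, beside 10.9% lower and 15.0% higher over all probe sets tested. Their median log2 change was 0.03, and with arrays centred on their medians 2 rose. The 5 that fell were the fatty acid synthesis genes Fasn and Acaca, the glycerol phosphate shuttle gene Gpd2, Pgd of the pentose phosphate pathway, and Mlxipl, which encodes the sugar-sensing factor ChREBP. Fasn read 1300, 1301 and 1484 in knock-in and 4094, 7181 and 4103 in wild-type livers, a log2 change of -1.85 ± 0.21 (limma adjusted p = 0.00151). Gpd2 read 330, 529 and 258 in knock-in and 907, 1060 and 1140 in wild-type livers, a log2 change of -1.49 ± 0.24 (limma adjusted p = 0.00459), or -1.77 without knock-in replicate 3. Acaca changed by -1.63 ± 0.19, Pgd by -0.72 ± 0.11 and Mlxipl by -0.59 ± 0.12. Leaving out knock-in replicate 1 ended the call of Mlxipl (adjusted p = 0.0512).

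The 5 that rose were the sodium pump gene Atp1b1, the transcription factor gene Klf9, the sterol transporter genes Abcg5 and Abcg8, and Pck1 of gluconeogenesis. Atp1b1 read 7137, 7227 and 6728 in knock-in and 2620, 2860 and 2771 in wild-type livers, a log2 change of 1.35 ± 0.07 (limma adjusted p = 0.000118). Klf9, which glucocorticoids also induce, read 3230, 3310 and 3438 in knock-in and 1821, 1681 and 1914 in wild-type livers, a log2 change of 0.88 ± 0.09 (limma adjusted p = 0.000856). In Atp1b1 and Klf9 the knock-in mice lay close together, and replicate 3 did not stand apart. Abcg8, Abcg5 and Pck1 changed by 0.88, 0.60 and 0.29, calls that were each lost with several single mice left out, with no filter and with arrays centred on their medians (over all alternatives that ended them, adjusted p = 0.0537 to 0.122). Leaving out knock-in replicate 1, or else wild-type replicate 4, left 2 genes that rose, and leaving out knock-in replicate 5, wild-type replicate 2 or wild-type replicate 6 left 3. Hr, a direct T3 target in brain and skin, read 79, 87 and 98 in knock-in and 83, 82 and 84 in wild-type livers and was not called (log2 change 0.07 ± 0.09). Pgd, Mlxipl, Abcg5 and Pck1 were named after their values were seen.

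The 4 tested genes that T3 lowers in rodent liver, named after their values were seen, were Scd1, Srebf1, Cyp8b1 and Apoc3. By limma at the adjusted threshold 0 were called, beside 25.9% of all probe sets tested. An unadjusted p below 0.05 was found for 3. The share of all probe sets below that unadjusted threshold was not worked out, so the 3 cannot be read as a result. Their log2 changes were -0.52 ± 0.17 for the desaturase gene Scd1, -0.72 ± 0.23 for the lipogenic factor gene Srebf1, -0.96 ± 0.40 for the bile acid gene Cyp8b1 and -0.11 ± 0.06 for Apoc3 (adjusted p = 0.0586 to 0.188). Scd1 was called without knock-in replicate 3, Srebf1 without knock-in replicate 5 and Cyp8b1 without wild-type replicate 2, so that 1 fell in each case.

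**Figure D4:**
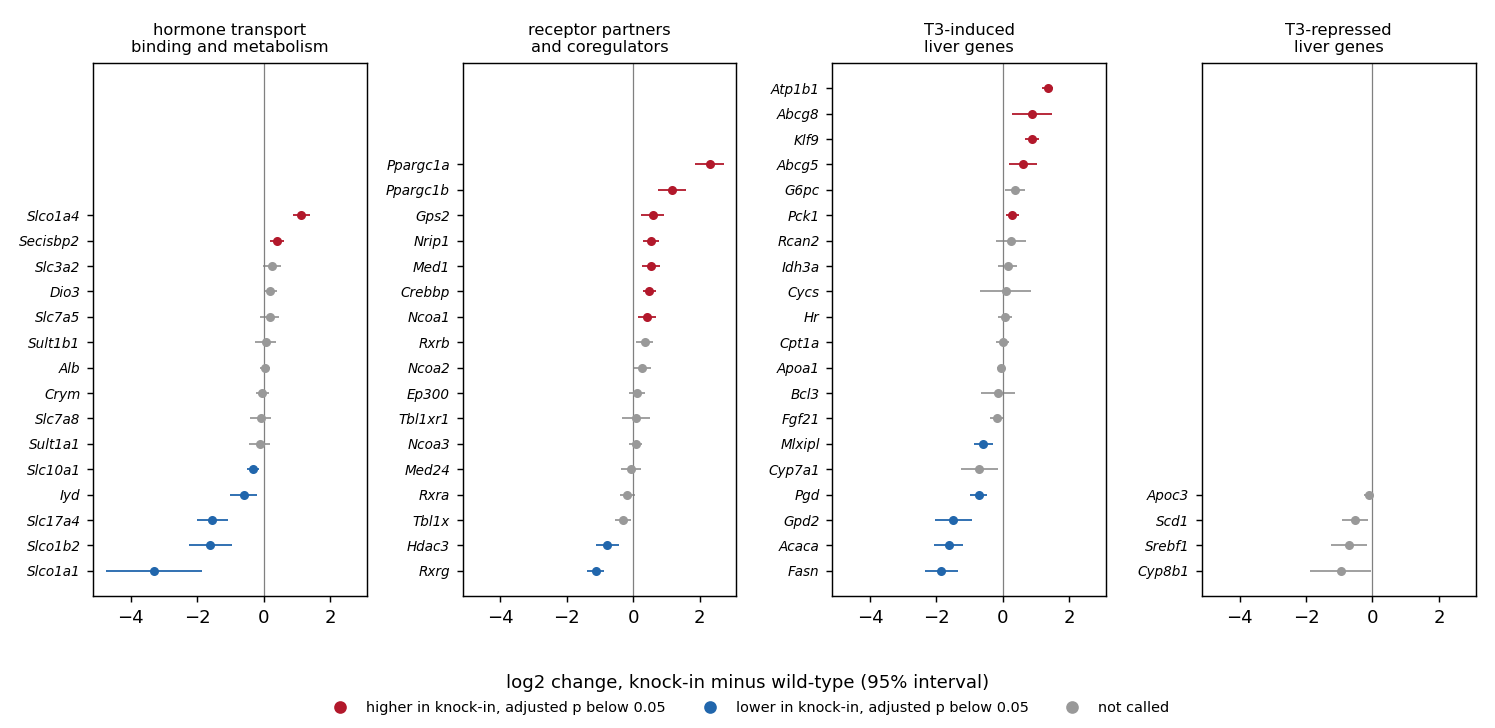
Log2 change, knock-in minus wild-type (horizontal axis), with 95% intervals, of each tested gene in 4 lists of the thyroid hormone pathway, 1 row for each gene. Red points were called higher, blue points lower and grey points were not called, and among the T3-induced genes 5 were called on each side of 0.

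The genes whose profiles over the 6 mice were most like that of Dio1 or Thrb were found by the root mean square difference of log2 values, each gene centred on its own mean, among tested genes with a single symbol. For Dio1 they were Inhbe (0.43), Mup3 (0.49) and Sult2a8 (0.49). Inhbe read 50, 51 and 48 in knock-in and 1304, 818 and 1042 in wild-type livers, and its knock-in values lay close together. Mup3, a major urinary protein gene of a family with near-identical members, read 288, 901 and 261 in knock-in and 6328, 5618 and 5645 in wild-type livers. For Thrb they were Lbh (0.07), Itga9 (0.08) and Gimap4 (0.09), where smaller values mean closer profiles. Gimap4 read 92, 155 and 72 in knock-in and 145, 129 and 129 in wild-type livers, with knock-in replicate 3 the highest, and none of these 3 genes was called. The choice by likeness to Thrb favours genes with a high knock-in replicate 3 and a small change, so neither is a separate result. Likeness to Dio1 in the same way favours genes with a large fall. The falls of Inhbe, Mup3 and Sult2a8 are therefore not separate results either.

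Markers of other liver cells were measured beside these results. Their counts are to be read against 15.0% called higher and 10.9% called lower over all probe sets tested. Of 6 Kupffer cell markers, 1 fell (Adgre1), and their summed intensity was 1825 to 3730 in knock-in and 3354 to 5672 in wild-type mice. The other 5 were not called. Among them Cd5l, Clec4f, Csf1r and Vsig4 had log2 changes of -1.02, -0.75, -0.47 and -0.22, and Marco went the other way (0.48). Of 5 sinusoidal endothelial markers, 3 fell (Stab2, Kdr and Clec4g) and 1 rose (Lyve1, by 1.43 ± 0.35). Their sums were 3444 to 4929 in knock-in and 4307 to 4683 in wild-type mice. Of 5 stellate cell markers, 1 fell (Lrat, by -1.16 ± 0.21) and 1 rose (Dcn, by 0.49 ± 0.09). Their sums were 7201 to 8571 in knock-in and 6292 to 7192 in wild-type mice. Dcn alone read 6731, 6736 and 5978 in knock-in and 4891, 4225 and 4704 in wild-type livers. It made up most of each sum, so the sums do not stand for the other stellate markers. Of 4 tested neutrophil markers, 3 rose, with sums over 5 measured markers of 383 to 424 in knock-in and 268 to 300 in wild-type mice. Of 4 cholangiocyte markers limma called 0, and 0 had an unadjusted p below 0.05, while 1 of 2 tested lymphocyte markers fell. The lowest value of a listed marker was 14, for the lymphocyte marker Cd79a, where the lowest value of any probe set was 7 on every array. Cd79a, Cd3d and the neutrophil marker Ngp lay below the intensity of 38.7 required for testing. Retnlg, a neutrophil marker that rose, read 34, 37 and 34 in wild-type livers, also below it. The part of these cells in the values of the thyroid hormone genes was not tested.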

How the data were processed

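Liver RNA of 6 mice was hybridised to 1-colour arrays, and the authors' deposited table held 1 intensity for each of 35512 probe sets and 6 arrays, in whole numbers on a linear scale. How the authors summarised, background-corrected and normalized these intensities is not stated in the sources used here. Biotin-labelled RNA was transcribed from cDNA of column-purified total RNA, per the labels' protocols. Gene names came from GEO's annotation of the platform and can be out of date: 21789 had 1 symbol, 1621 several and 12102 none listed. Each column's header is the identifier of 1 sample.

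Arrays were to be centred if their medians differed by over 0.1 on log2, with the pseudocount not specified. They differed by 0.087 on the log2(intensity + 16) scale of the test and by 0.1005, over the limit, without the pseudocount. Values entered as deposited, with centred arrays as an alternative, under which Ttr was also called. Probe sets with a mean over the 6 arrays below the 25th percentile (38.7) were dropped, and all 8 genes passed. limma 3.58.1 in R 4.3.3 (lmFit, eBayes with trend) compared the genotypes in the remaining 26664 as knock-in minus wild-type, and p-values were adjusted by Benjamini-Hochberg, with calls below 0.05. The fit was tested on simulated data. A gene was represented by its brightest probe set with a single symbol. Each array is a separate mouse by its label, so the mouse is the unit of the test. The p-values set the genotype difference against the spread between mice. That spread is moderated toward a trend over all probe sets tested.

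The genes and lists were chosen with earlier results of these data known. Named genes are the 8, up to 6 called genes of each list by absolute change, 10 set by name, and the 3 profiles nearest to Dio1 and Thrb, with clone names left out. The search for CCAAT was added after the data were seen. Alternatives were other pseudocounts, normalizations, filters, priors, array weights, thresholds, 1 probe set per gene, and each mouse left out. Promoters are from RefSeq (GRCm38.p6). The probe sets' own positions were not used here. Figures were drawn with matplotlib 3.10.9.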

Additional observations from a re-analysis of the deposited data

How the results depend on the processing

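Dio1, Thrsp, Me1 and Slc16a10 kept their direction and their calls under all 16 alternatives, with log2 changes of -4.91 to -3.98, -3.50 to -2.45, -2.74 to -2.14 and 0.92 to 1.14, and Thra stayed uncalled under all 16 (-0.18 to -0.06). Ttr was called with arrays centred on their medians (-0.26, adjusted p = 0.0394), with a filter set at the 50th percentile (-0.21, adjusted p = 0.0430) and with array weights (-0.21, adjusted p = 0.0291). With single mice left out, the log2 change was -0.55 to -0.063 for Thrb, -0.26 to -0.15 for Ttr and -1.17 to -0.28 for Serpina7, and the call of each was gained without knock-in replicate 3 alone. The number of the 8 genes called was 4 to 7 over these mice (3 to 6 lower). Hr, at 0.07 over all mice, was at -0.0011 to 0.13 with single mice left out, the lowest without knock-in replicate 5 (adjusted p = 0.995).

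Of all probe sets, 4237 to 7750 were called with single mice left out (2427 to 4293 higher, 1810 to 3457 lower). With a further limit of 1.5-fold, 3862 were called (2088 higher, 1774 lower). With 1 probe set per gene, 2322 were higher and 2507 lower, of fewer tested. Of the calls, the share in the higher direction was 57.8% (3991 higher, 2913 lower). It was 47.8% with centred arrays (3141 and 3426), 52.4% with quantile normalization (3651 and 3315) and 48.1% with 1 probe set per gene. The lists were counted by gene, whereas the shares beside them are over all probe sets. With single mice left out, the transport list had 1 to 2 higher and 3 to 5 lower, the coregulators 4 to 7 higher, the T3-induced genes 2 to 5 higher and the T3-repressed genes 0 to 1 lower. The T3-induced genes had 2 higher with centred arrays or no filter. The T3-repressed genes had 1 lower with centred arrays, and 2 lower under a 50th percentile filter, array weights, 1 probe set per gene or an adjusted p below 0.1. With the limit of 1.5-fold, the transport list had 1 higher and the coregulators 2. Of 526 values of 33 named pathway genes under the alternatives, 468 kept direction and call, 47 lost a call, 10 gained one and 1 changed sign. The cause of these differences was not tested. No paired analysis was possible because the genotypes share no replicate number.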
